A study of Mus musculus with 32 samples.

Results

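IGHJ4, the last of the mouse JH genes before the constant region, ended 713 of the 930 clonotypes in the table deposited for the whole series. A clonotype is a CDR3 sequence with its V, D and J genes, and it was taken as an IGHJ4 join when IGHJ4 was its first listed J gene. In the 32 samples that could be tied to a label there were 702 IGHJ4 clonotypes among 908, and none of the 702 listed a further JH gene. The other clonotypes ended in IGHJ3 (101), IGHJ2 (88) or IGHJ1 (17).

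The samples were amplicons of rearranged heavy chain genes from genomic DNA of pro-B cells sorted as B220+ and CD43+ but IgM- and CD25-, from untreated mice 8 weeks old, either control (WT, 5 mice) or Setd2 knockout (KO, 6 mice). Each PCR paired a primer of 1 V family, Vh558, Vh7183 or Vhq52, with a primer for JH4, and a product of 500 bp was cut from the gel. Vh558 gave 450 IGHJ4 clonotypes in 4 WT mice and 95 in 5 KO mice, Vh7183 gave 68 in 5 WT and 24 in 5 KO mice, and Vhq52 gave 48 in 5 WT and 17 in 4 KO mice. Neither strain nor driver of the deletion is named by the labels, and the sources used here do not give them. Pro-B identity and the loss of Setd2 rest on the labels, since a heavy chain amplicon measures neither.

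Pro-B cells build the heavy chain gene in steps, with D to JH joining ahead of the addition of a V gene. The RAG nuclease opens each JH gene at its recombination signal, nucleases may trim the opened end, and terminal transferase may add bases before the ends are joined. The start of IGHJ4 codes for tyrosines that sit in the CDR3, the loop that varies most in the antibody and carries much of its contact with antigen. SETD2 trimethylates lysine 36 of histone H3 along transcribed genes.

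The IGHJ4 part of the CDR3, read from the deposited clonotypes, is shown first, since the results turn on how much of it was kept. The lines give the most frequent IGHJ4 part among clonotypes that kept both leading tyrosine codons, then among those that kept 1, then among those that kept none, with whole leading tyrosine codons in capitals.
IGHJ4 uncut: atTACTATgctatggactactgg
IGHJ4 with 4 bases cut: cTATgctatggactactgg
IGHJ4 with 8 bases cut: gctatggactactgg
The uncut part was 23 bases long, and 39 clonotypes of 8 mice carried exactly the first line. The second line stood in 88 clonotypes of 9 mice and the third in 52 clonotypes of 7 mice. Cutting up to 2 bases leaves both leading tyrosine codons, cutting 3 to 5 leaves 1, and deeper cuts leave none.

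Whole CDR3s show what such joins look like. The next lines give the IGHJ4 clonotype with the most reads in each amplicon and genotype. Last comes 1 of the 2 most trimmed IGHJ4 clonotypes, and the IGHJ4 part is in capitals.
Vh558 WT mouse 1485: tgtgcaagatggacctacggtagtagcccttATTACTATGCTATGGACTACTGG
Vh558 KO mouse 1423: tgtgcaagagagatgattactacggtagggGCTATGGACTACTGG
Vh7183 WT mouse 1485: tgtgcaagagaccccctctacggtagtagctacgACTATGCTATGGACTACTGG
Vh7183 KO mouse 1487: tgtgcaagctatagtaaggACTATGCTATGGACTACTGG
Vhq52 WT mouse 1418: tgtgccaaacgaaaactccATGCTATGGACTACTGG
Vhq52 KO mouse 1421: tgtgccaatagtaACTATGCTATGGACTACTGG
Vhq52 WT mouse 1432: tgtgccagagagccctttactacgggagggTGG
The Vh558 WT clonotype joined IGHV1-72 and IGHD1-1 to an uncut IGHJ4 and held 70.5% of the reads of its library. The Vh558 KO clonotype also used IGHD1-1, lost 8 bases of IGHJ4 and held 31% of its library. The Vhq52 WT clonotype of mouse 1418 had no D hit, and its sequence recurred in 3 other mice. The last line lost 20 bases of IGHJ4, so that 3 bases of the gene were left.

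Libraries held 387 to 9276 kept reads, and IGHJ4 supplied 120434 of 124973 reads. IGHJ4 clonotypes per library ran from 2 to 187, and KO libraries tended to be smaller: 7 Vh558 KO libraries had 5 to 36 clonotypes of any JH gene (median 10), against 7 to 188 (median 66) in the 6 WT libraries. Libraries with under 3 IGHJ4 clonotypes gave no mean, which left out Vh558 of KO mouse 1534 and Vh7183 and Vhq52 of KO mouse 1421. Mice of an amplicon shared CDR3 sequences: in Vhq52 11 IGHJ4 sequences recurred between mice and made up 26 of 65 IGHJ4 clonotypes, 5 of them in both genotypes and 1 in 4 mice. In Vh7183 9 sequences recurred, each in 2 mice of the same genotype, making 18 of 92 clonotypes. No IGHJ4 sequence was shared in Vh558. Among joins to IGHJ1, IGHJ2 and IGHJ3, 4 of 73 clonotypes (5.48%) were shared in Vhq52, 2 of 76 (2.63%) in Vh7183 and 0 of 57 in Vh558. The Vhq52 sequence found in 4 mice ran from 3374 reads down to 2, while a Vh7183 sequence had 134 and 107. In Vhq52 all 9 IGHJ4 clonotypes of WT mouse 1418 were shared. How the shared sequences arose was not tested.

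Trimming of IGHJ4 was uneven along the gene. The start was uncut in 133 of 702 clonotypes (18.9%), 81 of which carried further bases counted as lying before the start of the gene. Beyond the uncut start, the counts peaked at 4 bases (120 clonotypes, 17.1%) and again at 8 bases (62 clonotypes, 8.83%). Cuts of 3 and 5 bases, beside the first peak, had 65 and 67 clonotypes, and cuts of 7 and 9 bases, beside the second, had 21 each. Cuts of over 10 bases were found in 42 clonotypes (5.98%). Both leading tyrosine codons were kept in 235 clonotypes (33.5%), 1 in 252 (35.9%) and none in 215 (30.6%). These counts pool clonotypes across mice, and WT mice 1418 and 1536 gave 211 and 265 of the 702. A sequence found in repeat libraries of a mouse counts once for each library. The same holds for the pooled counts of tyrosine runs and D partners below.

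**Figure D1:**
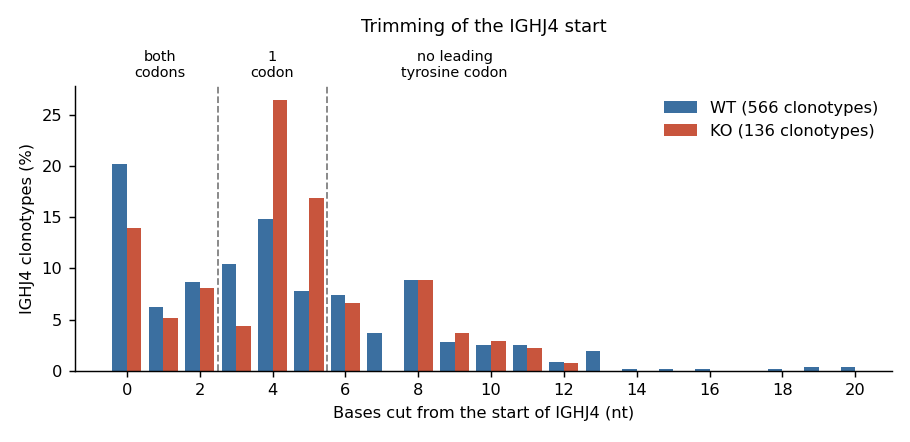
Percentage of IGHJ4 clonotypes (vertical axis) by the number of bases cut from the start of the gene (horizontal axis), pooled over all amplicons for 566 WT and 136 KO clonotypes; dashed lines mark where the first and the second leading tyrosine codon are lost. The tallest KO bar stands at 4 bases, with 36 clonotypes, and mouse 1423 alone supplied 40 of the 59 KO clonotypes cut by 4 or 5 bases.

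Pooled KO clonotypes had a tall peak at 4 bases, to which a single mouse gave most clonotypes. Cuts of 4 or 5 bases made up 43.4% of 136 KO clonotypes and 22.6% of 566 WT clonotypes. KO mouse 1423 had such cuts in 40 of its 57 IGHJ4 clonotypes (70.2%), while the other KO mice ranged from 0% to 37.5% and the WT mice from 7.14% to 29.9%. Without mouse 1423 the pooled KO share was 24.1% of 79 clonotypes, close to the WT share.

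With the mouse as replicate, mean trimming of IGHJ4 in Vh558 was 3.25, 3.8, 4.44 and 4.57 nt in the WT mice and 3.08, 3.37, 5.14 and 6.67 nt in the KO mice, and the groups overlapped. In Vh7183 the WT means were 3.47, 4.04, 4.1, 4.7 and 4.71 nt and the KO means 1.8, 4.33, 4.5 and 6.38 nt, so that KO mice lay on both sides of the WT mice. In Vhq52 they were 1.36, 1.94, 3.22, 3.67 and 10 nt in WT and 1.5, 3.4 and 6.5 nt in KO mice, again overlapping. WT mouse 1432 stood apart there, with 6 IGHJ4 clonotypes. Over all amplicons KO exceeded WT by 0.0558 nt (95% interval -1.4 to 1.17, 5 WT and 5 KO mice, exact permutation p = 0.825, adjusted p = 0.865 over 13 measures). The sign of this difference turned under several other settings, and the interval leaves room for more than 1 nt either way.

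Kept tyrosines likewise did not separate the genotypes. In Vh558 WT mice kept both codons in 39.4% ± 10.6 (SD, n = 4) of IGHJ4 clonotypes, and KO mice in 25.5% ± 27.3 (SD, n = 4). In Vh7183 WT mice had 34.8% ± 13 (SD, n = 5), with KO mice at 33.8% ± 26.9 (SD, n = 4). In Vhq52 WT mice had 50.6% ± 25.4 (SD, n = 5), with KO mice at 37.2% ± 32.8 (SD, n = 3). The SD among KO mice was larger than each of these differences between means. KO minus WT, with all amplicons combined, came to -8.82 percentage points (interval -29.8 to 10.2, exact permutation p = 0.333, adjusted p = 0.481), and 3 of 5 KO mice lay below all WT mice. It was -0.10 points without sequences shared between mice and -1.22 without KO mouse 1487, and -14.1 without KO mouse 1421.

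The run of tyrosines directly before the conserved end of the CDR3 had length 0 in 226 clonotypes (32.2%), 1 in 264 (37.6%), 2 in 136 (19.4%) and 3 or 4 in 76 (10.8%). Clonotypes that kept both leading codons had a mean run of 2.16 residues, those with 1 codon 1 and those with none 0.0326. Genotypes differed by -0.0304 residues (interval -0.4 to 0.3, exact permutation p = 0.865, adjusted p = 0.865).

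IGHJ4 made up a larger share of clonotypes in Vh558 than in Vhq52. In Vh558 the shares were 57.1, 65.2, 93 and 98.8% in WT mice and 40, 60, 72.9, 76.9 and 84.4% in KO mice. In Vh7183 they were 53.8, 55.6, 55.6, 74.3 and 75% in WT mice and 18.2, 25, 33.3, 35.3 and 88.9% in KO mice, and 4 of the 5 KO mice were below every WT mouse. In Vhq52 they were 30, 40, 50, 60 and 64% in WT mice and 28.6, 35.7, 36.4 and 46.2% in KO mice, so the groups overlapped.

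Vh558 exceeded Vhq52 by 29.9 percentage points (exact permutation of amplicon labels within genotype, p = 0.00145, adjusted p = 0.0174 over 12 comparisons, 9 mouse values in each amplicon). With the mouse as a replicate block (paired values of the same animals) the difference was 32.3 points, higher for Vh558 in all 7 mice with both amplicons. Its exact sign-flip permutation p of 0.0156 (adjusted p = 0.188) is the smallest that 7 mice allow, so that this paired test could not pass on its own over 12 comparisons. Without sequences shared between mice the difference was 42 points (exact permutation, adjusted p = 0.00227). Without KO mouse 1421 it was 27.8 points (exact permutation, adjusted p = 0.0707). Vh558 exceeded Vh7183 by 21.2 points (exact permutation p = 0.0323, adjusted p = 0.194), and by 28.1 points with adjusted p = 0.0408 without KO mouse 1500, whose Vh7183 library stood apart at 88.9%. Vh7183 exceeded Vhq52 by 8.74 points (exact permutation p = 0.325, adjusted p = 0.808), by 18.6 points without shared sequences (exact permutation p = 0.0197, adjusted p = 0.079) and by 2.59 points without KO mouse 1500. Vh7183 and Vhq52 were each sequenced as a single batch, so that amplicon and batch cannot be told apart.

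Read counts gave a narrower picture. IGHJ4 held 75.1 to 99.98% of the reads of each library, and with clonotypes weighted by reads Vh558 exceeded Vh7183 by 6.55 points (exact permutation, adjusted p = 0.0304) and Vhq52 by 7.18 points (exact permutation, adjusted p = 0.0249). Libraries with over 50 clonotypes, 4 in number and all of WT Vh558, had IGHJ4 shares of 89.9 to 99.5%, and the other 28 libraries 18.2 to 88.9%. The PCR ended in JH4 and a single product size was cut from the gel, which can itself set the share of each JH gene, and its part in these shares was not tested.

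**Figure D2:**
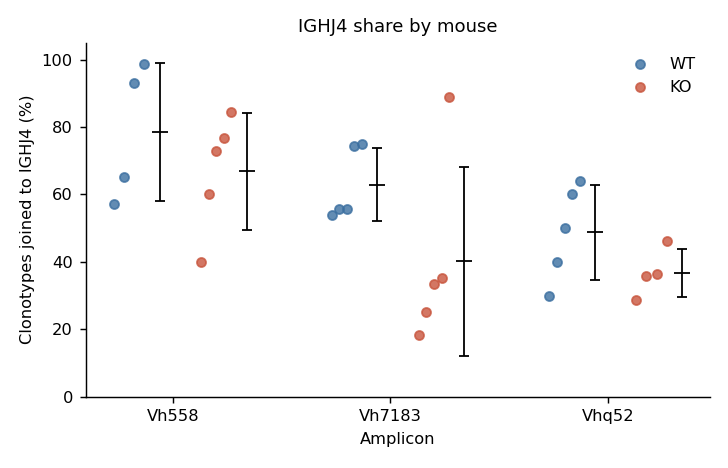
Percentage of clonotypes joined to IGHJ4 (vertical axis) in each mouse, by amplicon (horizontal axis) and genotype; points are mice, with repeat libraries averaged, and black bars are the mean and SD. Vh558 lies highest, between 40 and 98.8%, and KO mouse 1500 stands apart in Vh7183 at 88.9%.

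The mean IGHJ4 share was lower in KO than in WT mice in each amplicon, with KO minus WT of -11.7 points in Vh558 (n = 4 WT and 5 KO), -22.7 in Vh7183 (n = 5 and 5) and -12.1 in Vhq52 (n = 5 and 4). Combined per mouse, KO minus WT was -19.2 points (95% interval from -35.3 to -1.81, exact permutation p = 0.0325), which did not pass adjustment (adjusted p = 0.186, 5 WT and 6 KO mice), and 3 KO mice lay below all WT mice. The lowest of these, KO mouse 1534, rests on a single Vh558 library of 5 clonotypes, 2 of them IGHJ4. Leaving out each mouse in turn gave -23.6 to -15.1 points. Within the 3 Vh558 sequencing batches KO minus WT was -12, -26.5 and -11.3 points, the second of these with 1 WT mouse. Weighted by reads the difference was -5.23 points. No amplicon's genotype difference in IGHJ4 share, trimming or CDR3 length was shown to differ from another's (9 comparisons, lowest exact permutation p = 0.444, adjusted p = 0.978).

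IGHJ4 joins had longer CDR3s than joins to the upstream JH genes of the same libraries. Only libraries with at least 3 IGHJ4 and 3 upstream clonotypes entered the comparisons with upstream genes. That left out both Vh558 libraries of WT mouse 1536, with 52 and 187 IGHJ4 clonotypes. It also left out Vh558 and Vh7183 of KO mouse 1500 and the repeat Vh558 library of KO mouse 1421. The mean was 44.7 nt for IGHJ4 and 39.7 nt for IGHJ1, IGHJ2 and IGHJ3 together, a difference of 5.02 nt (interval 3.35 to 6.89) that held in 10 of 10 mice (exact sign-flip permutation p = 0.00195, the smallest the design allows, adjusted p = 0.00781 over 8 measures). IGHJ4 means ran from 40.1 to 50.3 nt and upstream means from 37.2 to 42.2 nt. In Vh558 IGHJ4 was longer by 6.3 ± 2.78 nt (SD, n = 6 mice), in Vh7183 by 4.84 ± 4.46 nt (SD, n = 8) and in Vhq52 by 3.38 ± 5.18 nt (SD, n = 8). Among clonotypes of at least 10 reads the difference was 4.43 nt and did not pass (exact permutation, adjusted p = 0.313).

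The added length lay in the J part. An uncut IGHJ4 puts 23 bases into the CDR3, against 17 for both IGHJ2 and IGHJ3 and 22 for IGHJ1, read from the uncut clonotypes of each gene (1 clonotype for IGHJ1). Since IGHJ4 is the longest before any trimming, the test of CDR3 length largely restates these gene lengths. Within the same 10 mice the J part of the CDR3, as aligned, averaged 19.7 ± 1.34 nt (SD) for IGHJ4 and 14.4 ± 1.25 nt for the upstream genes, larger for IGHJ4 in 10 mice. The stretch before it, from V through D with inserted bases, averaged 25.1 ± 2.81 nt (SD) and 25.3 ± 1.74 nt, larger for IGHJ4 in 6 of 10 mice. Trimming did not separate the classes, with 3.62 nt cut from IGHJ4 and 3.31 nt from the upstream genes (difference 0.316 nt, interval -1.04 to 1.62, exact permutation p = 0.598, adjusted p = 0.797).

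IGHJ4 clonotypes also held more reads. The log2 of the median reads per clonotype averaged 7.2 for IGHJ4 and 3.12 for the upstream genes, a difference of 4.08 (interval 3 to 5.2, 10 of 10 mice, exact permutation p = 0.00195, adjusted p = 0.00781). Over all libraries the median clonotype had 17 reads for IGHJ4, 10 for IGHJ3, 4 for IGHJ2 and 3 for IGHJ1. In libraries left out for too few upstream clonotypes, the IGHJ4 log2 medians were 2.81 and 3.32 in Vh558 of WT mouse 1536. They were 10.5 in Vh558 of KO mouse 1421, and 9.09 in Vh558 and 5.43 in Vh7183 of KO mouse 1500. The difference was 4.49 ± 2.11 (SD, n = 6 mice) in Vh558, 3.72 ± 1.61 (SD, n = 8) in Vh7183 and 2.97 ± 2.98 (SD, n = 8) in Vhq52. Products that run through an upstream JH gene to a JH4 primer are longer than those that end in IGHJ4, and the part of product length in read numbers was not tested.

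**Figure D3:**
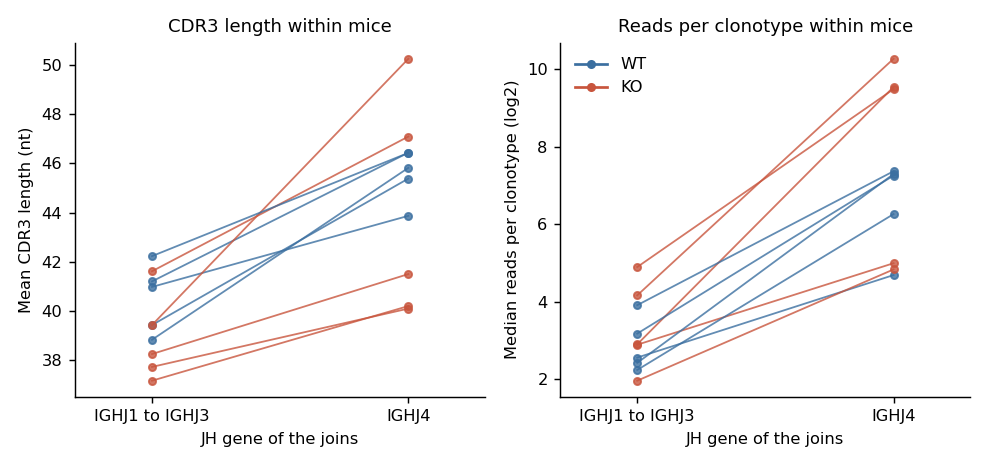
Mean CDR3 length in nt (left) and log2 of the median reads per clonotype (right) for joins to IGHJ1, IGHJ2 and IGHJ3 together and for joins to IGHJ4; each line is 1 mouse, averaged over its libraries. All 10 lines rise in both panels, for WT and KO mice.

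D partners of IGHJ4 were led by the DSP2 family (IGHD2 genes), with 321 clonotypes, and by DFL16 (IGHD1), with 165. DST4 (IGHD3) had 46, DQ52 (IGHD4), the D gene nearest to the JH genes, had 41, other D genes 41, and 88 clonotypes (12.5%) had no D hit. Single genes with the most IGHJ4 joins were IGHD1-1 (165 clonotypes, 26.9% of the 614 with a D hit, in 11 mice), IGHD2-4 (114, 18.6%), IGHD2-6 (72, 11.7%) and IGHD2-3 (57, 9.28%). IGHD2-7 had 51, IGHD4-1 41, IGHD3-2 39 and IGHD2-8 27. Each of the 614 clonotypes listed a single D gene. By Bray-Curtis distance over D genes, IGHJ2 (0.237, 77 clonotypes with a D hit) had the profile nearest to IGHJ4, with IGHJ3 at 0.243 (93 clonotypes) and IGHJ1, on 15 clonotypes, at 0.393.

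Against upstream JH genes in the same mice, DFL16 made up 35% of IGHJ4 joins with a D hit and 22.1% of upstream ones, a difference of 12.8 points (interval -0.635 to 26.7, higher in 6 of 10 mice, lower in 3) that did not pass (exact permutation p = 0.0586, adjusted p = 0.156). It was 15.3 points without sequences shared between mice (exact permutation, adjusted p = 0.0417), 5.44 with a minimum of 1 clonotype per library (adjusted p = 0.543) and 2.91 with a minimum of 5 (adjusted p = 0.964). The difference was 2.33 ± 19.3 points (SD, n = 5) in WT mice and 23.2 ± 18.2 (SD, n = 5) in KO mice, which was not tested. By amplicon it was 3.53 ± 11.5 points (SD, n = 5) in Vh558, 23.6 ± 15 (SD, n = 7) in Vh7183 and -2.07 ± 43.4 (SD, n = 7) in Vhq52. DFL16 was higher for IGHJ4 in 3, 7 and 3 of these mice, in the same order. DSP2 differed by -6.57 points (interval -29 to 11.6, exact permutation p = 0.574, adjusted p = 0.797), DQ52 by 0.913 points (interval -5.48 to 8.77, exact permutation p = 0.824, adjusted p = 0.824) and joins without a D hit by 1.3 points (interval -8.94 to 11.2, exact permutation p = 0.77, adjusted p = 0.824).

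D shares were taken only from libraries with at least 3 IGHJ4 clonotypes that had a D hit, which left out 6 KO libraries and no WT library. Those 6 held 10 IGHJ4 clonotypes with a D hit, 7 of them DSP2, 2 DFL16 and 1 DQ52. The KO mice that remained had a larger mean DQ52 share among IGHJ4 joins, on small numbers. In Vh558 the shares were 2.91, 5.6, 7.14 and 25% in WT mice and 0, 7.18 and 33.3% in KO mice, and the groups overlapped. In Vh7183 they were 0, 0, 11.1, 12.5 and 13.3% in WT mice and 20, 25 and 80% in KO mice, with KO mouse 1487 (1 of 2 clonotypes) and KO mouse 1421 (0 of 1) left out. In Vhq52 all 5 WT mice were at 0 and the KO mice at 0 and 25%. Those shares rest on few joins: 26 DQ52 clonotypes in 5 WT mice and 15 in 5 KO mice, with 4 of 5 clonotypes behind the value of 80% in KO mouse 1500.

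For DQ52, KO minus WT combined per mouse came to 19.3 points (interval 1.69 to 33.2, exact permutation p = 0.0317) and did not pass adjustment (adjusted p = 0.186), and 4 of the 5 KO mice exceeded all WT mice. Among clonotypes of at least 10 reads it was 8.5 points (exact permutation p = 0.333, adjusted p = 0.481). With a minimum of 1 clonotype it was 10.4 points (exact permutation p = 0.117, adjusted p = 0.38). Within the 3 Vh558 batches it was -12.2 points with 1 KO mouse, 9.75 with 1 WT mouse and 22.9 with 2 mice of each genotype. DSP2 differed by -22.9 points (interval -51.4 to 1.18, exact permutation p = 0.0556, adjusted p = 0.186). It was -10.8 points without KO mouse 1487 (exact permutation p = 0.198, adjusted p = 0.43) and -9.89 with a minimum of 1 clonotype (exact permutation p = 0.468, adjusted p = 0.675). In Vh7183 the 3 KO mice above the minimum had 20, 20 and 25% and the WT mice 33.3 to 46.7%, while KO mice 1487 and 1421, below the minimum, had 1 of 2 and 1 of 1. In Vh558 the WT mice averaged 47.1% ± 34.5 (SD, n = 4) with the KO mice at 47.8% ± 7.39 (SD, n = 3). DFL16 differed by 7.89 points (interval -18.7 to 37.8, exact permutation p = 0.556, adjusted p = 0.657), by 2.55 without shared sequences and by -3.03 without KO mouse 1487. By amplicon the DFL16 difference was -9.17 points in Vh558, -12.2 in Vh7183 and 41.4 in Vhq52, the last with 2 KO mice.

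**Figure D4:**
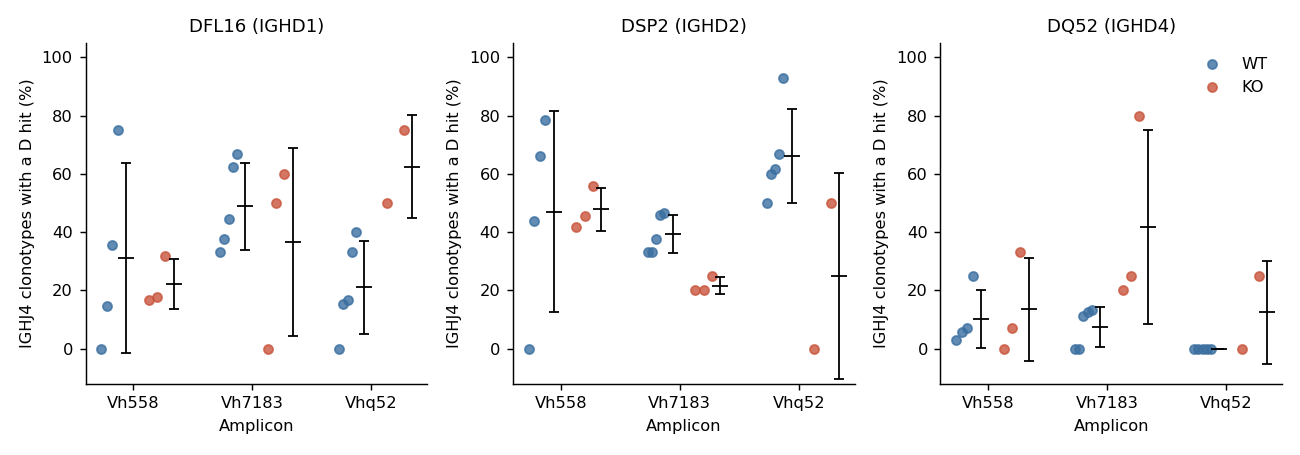
Share of DFL16, DSP2 and DQ52 among IGHJ4 clonotypes with a D hit, in percent (vertical axis), by amplicon (horizontal axis) and genotype; points are mice with at least 3 such clonotypes and black bars the mean and SD. In Vh7183 the 3 KO mice plotted lie at 20 to 80% for DQ52, above WT mice at 0 to 13.3%, and at 20 to 25% for DSP2, below WT mice at 33.3 to 46.7%.

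CDR3 length varied with the D partner. IGHJ4 joins to IGHD4-1 averaged 40.1 nt with 5.29 nt cut from IGHJ4. The means were 49.8 nt and 4.16 nt for IGHD1-1 and 50.4 nt and 3.88 nt for IGHD2-4, and the other 5 D genes with at least 20 IGHJ4 clonotypes averaged 44.8 to 46.2 nt. Among rarer D genes, IGHD5-7 (18 clonotypes) and IGHD3-1 (7) averaged 37.3 and 38.1 nt. In KO mice DQ52 joins averaged 38.8 ± 5.13 nt (SD, 15 clonotypes) and in WT mice 40.8 ± 6.3 nt (SD, 26 clonotypes). These are means over clonotypes, which are not replicates of a genotype.

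Joins without a D hit made up 0, 6.67, 9.06 and 13.1% of IGHJ4 clonotypes in WT and 0, 7.41, 19 and 33.3% in KO mice in Vh558. In Vh7183 the WT values were 0, 7.69, 10, 14.3 and 20% and the KO values 0, 33.3, 33.3 and 37.5%. In Vhq52 they were 0, 0, 16.7, 18.8 and 33.3% in WT and 0, 20 and 66.7% in KO mice. The groups overlapped in each amplicon, with a KO mouse at 0 in each. Over all amplicons KO exceeded WT by 11.3 points (interval -2.6 to 22.8, exact permutation p = 0.0714, adjusted p = 0.186), by 5.44 points without sequences shared between mice (exact permutation p = 0.349, adjusted p = 0.58) and by 18.1 points with a minimum of 1 clonotype (exact permutation p = 0.00866, adjusted p = 0.113). A missing hit says only that no D gene could be assigned.

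CDR3 length of IGHJ4 joins was even among WT mice in Vh558 and Vh7183, less so in Vhq52, and spread more among KO mice. The KO means rest on 3 to 8 clonotypes each in Vh7183 and 4 to 6 in Vhq52. The WT means rest on 7 to 26 and 3 to 16, and the part of these counts in the spread was not tested. In Vh558 the WT means were 45.2, 45.6, 46.6 and 48 nt and the KO means 41.4, 42, 42 and 50.7 nt, so that 3 KO mice lay below all WT mice and mouse 1464 above them. In Vh7183 the WT means were 44.1, 45.6, 46.2, 46.8 and 47.4 nt and the KO means 36, 37.5, 37.9 and 54.6 nt, with the highest again mouse 1464. In Vhq52 the WT means were 39, 43.3, 44, 46.7 and 47.3 nt and the KO means 36, 44.4 and 50.3 nt, where mouse 1464 was the lowest at 36 nt and mouse 1500 the highest.

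Over all amplicons KO minus WT was -3.27 nt (interval -6.3 to 0.52, exact permutation p = 0.0714, adjusted p = 0.186), with 4 KO mice below and 1 above every WT mouse. Without sequences shared between mice the difference was -2.29 nt, which did not pass either (exact permutation p = 0.405, adjusted p = 0.58), and from in-frame IGHJ4-ended joins of the single-sample lists, which count from 1 read, it was -0.425 nt. With a minimum of 1 IGHJ4 clonotype per library it was -1.84 nt (exact permutation p = 0.288, adjusted p = 0.624). Inserted bases differed by -1.5 nt (interval -4.3 to 1.58, exact permutation p = 0.294, adjusted p = 0.477). Between amplicons CDR3 length of IGHJ4 joins differed by at most 1.42 nt and trimming by at most 0.372 nt, and joins without a D hit by at most 10.2 points (9 comparisons, adjusted p of 0.808 or more in exact permutation tests).

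**Figure D5:**
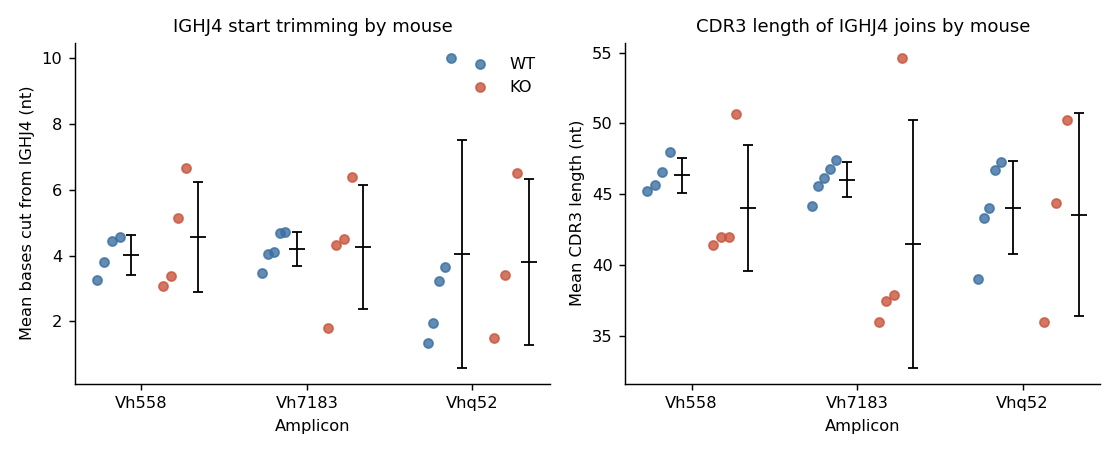
Mean bases cut from IGHJ4 (left) and mean CDR3 length of IGHJ4 joins (right), both in nt, by amplicon (horizontal axis) and genotype; points are mice and black bars the mean and SD. WT mice of Vh558 and Vh7183 sit between 44.1 and 48 nt in CDR3 length, and KO mice spread from 36 to 54.6 nt in Vh7183.

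IGHJ4 reads were unevenly spread over clonotypes. There were 36 clonotypes with over 25% of the reads of a library, in 22 libraries of 9 mice and with 32 distinct sequences. All 36 were IGHJ4 joins, which was fixed beforehand, since IGHJ4 held at least 75.1% of the reads of each library. These 36 held 42.1% of all IGHJ4 reads. Among them 10 kept both leading tyrosine codons, 12 kept 1 and 14 kept none, 14 used DSP2, 9 used DFL16 and 8 had no D hit. Their CDR3s ran from 27 to 57 nt, with a mean of 42.7 ± 8.27 nt (SD). By contrast 281 of 702 IGHJ4 clonotypes (40%) had 2 to 9 reads.

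The largest IGHJ4 clonotype held 6.77, 9.64, 22.2 and 72% of the IGHJ4 reads in WT mice of Vh558 and 29.1, 31.5, 36.1 and 45.4% in KO mice. In Vh7183 the WT values were 9.15, 14.3, 18.2, 34.8 and 43.7% and the KO values 26.4, 43.9, 57.7 and 59.6%, which overlapped. In Vhq52 they were 14.2, 18.9, 46, 46.6 and 76.8% in WT and 33.6, 36.9 and 66.5% in KO mice. KO exceeded WT by 13.9 points over all amplicons (interval -9.32 to 34.3, exact permutation p = 0.198, adjusted p = 0.43). It was 23 points without WT mouse 1485 (exact permutation p = 0.00794, adjusted p = 0.0516) and 25.2 with a minimum of 1 clonotype (exact permutation p = 0.0736, adjusted p = 0.319). The log2 median clone size in percent of the library was higher by 1.39 in KO mice (interval -1.92 to 4.18, exact permutation p = 0.278, adjusted p = 0.477). Both measures depend on how many IGHJ4 clonotypes a library holds. KO libraries held 2 to 27 in Vh558, 2 to 8 in Vh7183 and 2 to 6 in Vhq52. WT libraries held 4 to 187, 7 to 26 and 3 to 16, and Vh558 of WT mouse 1485 held 4. The part of these counts in both differences was not tested.

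Clone lists of the single samples also hold joins out of frame. There 1272 of 2111 clonotypes ended in the last 11 bases that marked IGHJ4 in the series table, an end carried by 634 of its 702 IGHJ4 clonotypes. Joins picked this way carry at least those 11 bases, so more deeply cut joins do not enter the comparison of bases kept. Of the joins picked 782 (61.5%) were in frame and 536 had a single read. In-frame joins kept 19 bases of IGHJ4 and out-of-frame joins 18.6, a difference of 0.366 nt (interval 0.0134 to 0.726, higher in 7 of 10 mice, exact permutation p = 0.0449, adjusted p = 0.0449 over 2 measures). Among clonotypes of at least 2 reads the difference was 0.0581 nt (exact permutation, adjusted p = 0.82). Leaving out any of WT mice 1418, 1432, 1484 and 1485 or KO mice 1421, 1423 and 1500 also ended the call, with differences of 0.297 to 0.396 nt.

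In-frame joins held more reads, with a log2 median of 3.15 against 0.92, a difference of 2.23 (interval 0.64 to 3.65, higher in 8 of 10 mice, exact permutation p = 0.0156, adjusted p = 0.0313). Among clonotypes of at least 10 reads it was 0.51 (exact permutation, adjusted p = 0.227). Leaving out any of WT mice 1432, 1484 and 1485 or KO mice 1421, 1423 and 1500 raised the adjusted p to 0.0508 to 0.0625, with differences of 1.98 to 2.16. The in-frame share of IGHJ4-ended joins differed between genotypes by -3.84 points (interval -13.8 to 7.96, exact permutation p = 0.446, adjusted p = 0.58).

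V partners of IGHJ4 in Vh558 were led by IGHV1-26 (81 clonotypes, 6 mice), IGHV1-55 (64, 6 mice) and IGHV1-72 (47, 7 mice), and 93.1, 95.5 and 78.3% of the clonotypes of these genes ended in IGHJ4. In Vh7183 they were IGHV5-4 (19 clonotypes), IGHV5-12 (14) and IGHV5-6 (13), with 63.3, 77.8 and 56.5% in IGHJ4. In Vhq52 IGHV2-2 had 18 of its 65 clonotypes in IGHJ4 (27.7%), IGHV2-3 17 of 24 (70.8%) and IGHV2-9-1 10 of 19 (52.6%). Per mouse, IGHJ4 ended 27% ± 13.2 (SD, n = 9) of IGHV2-2 clonotypes and 60.4% ± 21.7 (SD, n = 9) of the other Vhq52 clonotypes, lower for IGHV2-2 in 7 of 9 mice, a comparison made after the values were seen.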

How the data were processed

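MiXCR, a clonotype caller, is named in the title of the series, and the columns of the tables match it. The sources used here do not give its version, its settings or a genome build. Clone sizes are read counts as the authors deposited them, without normalization. Positions and trimmed lengths within the CDR3 are other quantities in the deposited series table, in nt. That table holds productive clonotypes of at least 2 reads under mouse gene names, in 34 libraries. A further run of KO mouse 1534 and a surplus one of KO mouse 1500 were not used, which left 32. The deposited lists of single samples carry human gene names and were used for frame, by the IGHJ4 end of the CDR3. Total reads were 7789 to 121353 per library; PCR reads without molecular identifiers are not independent molecules.

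Bases cut from IGHJ4 came from the deposited position of the J start, and matching the CDR3 end gave the same number for 697 of 702 clonotypes. D shares are of clonotypes with a D hit, at least 3 per library. Inserted bases are those between V and D plus those between D and J, or the whole stretch from V to J without a D hit. The mouse was the replicate: repeat libraries were averaged, values centred per amplicon and averaged per mouse, with at least 3 IGHJ4 clonotypes per library. Comparisons with upstream JH genes also needed at least 3 upstream clonotypes in the library. Mouse numbers pair the amplicons, since a number names the same animal. Two-sided exact permutation tests over mice, intervals by inverting them (95%) and Benjamini-Hochberg adjustment within 4 families (13, 8, 12 and 2 tests) were used, with a threshold of 0.05. The smallest p possible was 0.00794 for 5 against 5 mice. The named items are the JH genes, D families, D genes with at least 20 IGHJ4 clonotypes, the 3 leading V genes per amplicon and clonotypes over 25% of a library. Members and lists were chosen with earlier results of these data known. The tests were checked on simulated data. Python 3.11.15, numpy 2.4.6, pandas 2.3.3 and matplotlib 3.10.9 were used.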

Additional observations from a re-analysis of the deposited data

Results flagged for a closer look

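In 61 groups of mice (1 measure, amplicon and genotype each), 6 held a mouse far from the others of its group. For independent groups chance gives such a gap in about 1 in 20. Measures of the same libraries are not independent, so that rate is only a guide. No cause was tested. KO mouse 1464 had IGHJ4 joins with a mean CDR3 length of 50.7 nt in Vh558, where the next KO mouse had 42 nt, and of 54.6 nt in Vh7183, where the next had 37.9 nt. The same mouse had 0% of IGHJ4 joins without a D hit in Vh7183, where the other KO mice had 33.3 to 37.5%. Its Vh7183 values rest on 5 IGHJ4 clonotypes, and those of the other KO mice compared on 3, 6 and 8. KO mouse 1500 had an IGHJ4 share of 88.9% in Vh7183, against 18.2 to 35.3% in the other KO mice. WT mouse 1432 had 10 nt cut from IGHJ4 in Vhq52, against 1.36 to 3.67 nt in the other WT mice, and 7.17 inserted bases, against 5.11 to 5.67.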

How the results depend on the processing

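Of 35 tested differences 5 passed the threshold, and none of those 5 changed sign under any setting tried; 16 of the other differences turned sign at least once. Outside of leaving out mice, 222 of 264 values kept their direction and their side of the threshold. The cause of the changes was not tested; few IGHJ4 clonotypes per KO library limit all genotype values. Units are nt for trimming and length, residues for the tyrosine run and percentage points for shares.

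With clonotypes of at least 10 reads, KO minus WT was -0.196 for trimming and 0.0907 for the tyrosine run. IGHJ4 minus upstream genes was -5 for DQ52, -0.855 for joins without a D hit and 4.43 for CDR3 length. Trimming was -0.374 for Vh558 minus Vhq52 and -0.414 for Vh7183 minus Vhq52, and CDR3 length 0.845 for the latter. In-frame minus out-of-frame was 0.478 for J bases kept and 0.51 for log2 reads, and 0.0581 for J bases at 2 reads or more.

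Weighted by reads, Vh558 minus Vh7183 was 6.55 for the IGHJ4 share, -0.272 for trimming and 3.95 for joins without a D hit, and Vh7183 minus Vhq52 0.0855 for length. With 1 IGHJ4 clonotype as the minimum, KO minus WT was -0.205 for trimming and 0.0598 for the run, IGHJ4 minus upstream 0.391 for inserted bases, and Vh7183 minus Vhq52 -0.0906 for trimming, 0.421 for length and 2.91 for joins without a D hit. With 5 as the minimum, KO minus WT was -11.9 for DFL16, trimming was -0.147 for Vh558 minus Vh7183, -0.472 for Vh558 minus Vhq52 and -0.325 for Vh7183 minus Vhq52, and length 2.53 for the last pair.

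Without sequences shared between mice, KO minus WT was -0.437 for trimming and 0.162 for the run. IGHJ4 minus upstream was 15.3 for DFL16 and -2.5 for joins without a D hit. Vh558 minus Vhq52 was -1.34 for length and 7.01 for joins without a D hit, and Vh7183 minus Vhq52 16 for the latter. Pooled repeat libraries gave -0.0229 for KO minus WT trimming and -0.219 for IGHJ4 minus upstream joins without a D hit. The single lists gave -0.0822 for trimming, 0.31 for both codons and 0.155 for the run, KO minus WT. Without near-variants (chosen after seeing the data), KO minus WT trimming was -0.077.

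With the replicate block (paired values within mice), Vh558 minus Vhq52 was 32.3 for the IGHJ4 share and -0.121 for trimming, and Vh7183 minus Vhq52 0.953 for length. With 7 pairs the first of these could not pass on its own over 12 comparisons. No other difference between amplicons passed with the block, or without it in the main setting. Without the block, the IGHJ4 share of Vh558 minus Vh7183 passed when weighted by reads and when KO mouse 1500 was left out.

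Leaving out each mouse in turn gave the following ranges. For KO minus WT, trimming ran from -0.219 to 0.361, the run from -0.0967 to 0.0742 and DFL16 from -3.03 to 15.4. For IGHJ4 minus upstream, DQ52 ran from -1.76 to 1.94, DSP2 from -9.82 to 1.04 and joins without a D hit from -0.889 to 4.0004. For Vh558 minus Vh7183, the share ran from 16.9 to 28.1 and trimming from -0.148 to 0.309. For Vh558 minus Vhq52, the share ran from 27.8 to 33.3, trimming from -0.554 to 1.25, length from -1.62 to 3.39 and joins without a D hit from -20.5 to 0.454. For Vh7183 minus Vhq52, trimming ran from -0.619 to 1.39, length from -4.12 to 2.23 and joins without a D hit from -12.2 to 10.7. For in-frame minus out-of-frame, J bases ran from 0.297 to 0.441 and log2 reads from 1.98 to 2.69.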

Other observations

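Direct joins of D to IGHJ4, with no base between them, were unevenly spread over the cut positions. Among 614 IGHJ4 clonotypes with a D hit 110 (17.9%) were direct. At a cut of 2 bases 19 of 47 were direct (40.4%) and at 3 bases 23 of 61 (37.7%), against 22 of 122 (18%) at an uncut start, 18 of 103 (17.5%) at 4 bases and 1 of 55 (1.82%) at 8 bases. These are counts over clonotypes pooled across mice and carry no test. Over all 702 IGHJ4 clonotypes, deeper cuts went with more inserted bases. The mean was 6.73 with both leading tyrosine codons kept, 7.29 with 1 and 9.24 with none. Those means count both sides of the D, and the whole stretch from V to J where no D was assigned. Joins without a D hit made up 11.9, 11.1 and 14.9% of these classes.

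Mismatches within the J part were found in 127 of 702 IGHJ4 clonotypes (18.1%) and in 32 of 206 upstream ones (15.5%). Clonotypes that differed by at most 2 bases from one with at least 10 times the reads in the same library made up 33 of the 127 with a mismatch (26%) and 47 of the 575 without (8.17%). Repeat Vh558 libraries of the same mouse shared a minority of their IGHJ4 sequences: 19 between the 71 and 121 of WT mouse 1418, 7 between the 52 and 187 of WT mouse 1536, 9 between the 24 and 27 of KO mouse 1423 and 1 between the 6 and 6 of KO mouse 1421. The shared sequences held 36.6 and 32.7% of the IGHJ4 reads in WT mouse 1418 and 30.7 and 9.69% in WT mouse 1536. They held 21.5 and 42.5% in KO mouse 1423 and 39.2 and 33% in KO mouse 1421.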
